A study of Mus musculus with 11 samples.

Results

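Among the stretches of the mouse genome read by reduced representation bisulfite sequencing (RRBS), 1181 of 47317 tested tiles held few CpGs and were methylated at a low to middling level, and these tiles are described here. A tile is a window of 500 bp on chromosomes 1 to 19 of mm9. It was taken as a member when it had 3 to 9 listed CpG positions, at least 30 CpG-read observations in each of the 11 libraries, and methylation from 10% to under 50% after the reads of all libraries were pooled. A CpG-read observation is 1 read at 1 CpG. The members were chosen by this pooled level, so their overall level is a property of the choice and no finding. The label under which they were gathered likens them to enhancers. No chromatin mark, gene annotation or genome sequence of mm9 was used here, so that likeness was not checked and they are called CpG-sparse tiles of low methylation.

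In RRBS, DNA is cut by a restriction enzyme and treated with bisulfite, which turns unmethylated cytosines into uracil, so that the share of reads still carrying a cytosine gives the methylation of each CpG. The cells were ER-Hoxa9-Lys-GFP cells, a C57BL/6 mouse culture of myeloid progenitors grown in medium with stem cell factor. They carry a lysozyme-driven GFP and a fusion of the transcription factor Hoxa9 to an estrogen receptor domain, which is active while estradiol is present. All groups share the fusion and the reporter.

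In 1 library the cells were never taken off estradiol, called continuous or kept in estradiol below. Another 4 groups of 2 libraries each went without it for 24, 40, 56 or 72 h and were then returned to it for 96, 80, 64 or 48 h. The last 2 libraries went without it for 120 h and were not returned. A longer withdrawal always went with a shorter return, so withdrawal and return cannot be told apart. Nothing in the labels says that replicates were separate cultures, and p-values therefore reflect only how these libraries scatter, which may be technical. All groups come from 1 culture model, and the labels do not say how many clones it holds.

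Most CpGs of a mammalian genome are methylated, while CpG-rich islands at promoters are kept free of methylation. Tiles with few CpGs and partial methylation often lie at the edges of such islands or at distal regulatory elements, where binding of transcription factors is known to go with local loss of methylation. A partial level in a bulk sample can come from CpGs that differ along the tile, from cells that differ, or from alleles that differ, and bulk reads summed per CpG cannot tell the last 2 apart.

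The 1181 members were 5.91% of the 19993 tested tiles with 3 to 9 CpGs. Most CpG-sparse tiles were highly methylated, with 10528 at 90% or more and 4554 from 50% to under 90%, and 3730 lay under 10%. The members spread evenly over their range of levels. There were 328 from 10% to under 20%, 271 from 20% to under 30%, 288 from 30% to under 40% and 294 from 40% to under 50%. The commonest number of CpGs was 5 (238 members), and 138 members had only 3. Members were found on every autosome. Their share of the tested tiles ran from 1.46% on chromosome 12 to 3.96% on chromosome 19, and chromosome 5 held the most, 170.

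The bounds cut through a continuum. Just inside the lower bound lay chr8:28084501-28085000 and chr8:126069001-126069500, both at 10.1%, and chr8:126099501-126100000 at 10.0%. Just outside it lay chr7:105885501-105886000 and chr11:4035501-4036000, both at 9.91%, and chr5:149996501-149997000 at 9.86%. At the upper bound chr5:93243501-93244000, chr5:115453001-115453500 and chr12:109523001-109523500 were inside at 49.9%. The tiles chr1:133470501-133471000, chr5:76792001-76792500 and 1 on chromosome 18 were outside at 50%.

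Depth limits what can be read from a single member. Libraries held 8234933 to 46899896 CpG-read observations in all. The median member had 297 observations in the deepest library for these tiles, 24 h replicate 2, and 47 in the shallowest, 40 h replicate 1. No molecular identifiers are named in the labels, so several reads may copy 1 molecule and the intervals below cover counting error only. A read can also be counted at several CpGs of a tile. The intervals of tiles take these observations as independent, so they may be too narrow. A few members were read far more deeply. The member chr17:39981001-39981500 had 143613 observations, chr17:39985501-39986000 had 112123 and chr16:61056001-61056500 had 81188, and their pooled levels were 37.5%, 38.5% and 18.5%. In all, 64 members (5.42%) were in the deepest 1% of tested tiles by reads per CpG, against 1% of all tested tiles. Whether these reads come from more than 1 copy of a sequence was not tested.

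Within members the CpGs were far from alike. The difference between the highest and the lowest CpG of a member, over CpGs with at least 100 pooled reads, had a median of 49.1 percentage points in the 1165 members with at least 3 such CpGs. Over all tested tiles the median was 6.77 points. In CpG-sparse tiles at 50% to under 90% it was 45.8 points, and in tiles of 10 to 19 CpGs at 10% to under 50% it was 50.1 points. A tile at 0% or 100% leaves no room for a range, so these values describe the class and are no test of it.

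In 477 members (40.9%) at least 1 CpG was under 10% and at least 1 other was at 50% or more. The same held for 7.15% of the CpG-sparse tiles at 50% to under 90% and for 41.7% of the tiles of 10 to 19 CpGs at the members' level. All CpGs lay within 20 points of each other in 197 members (16.9%), in 9.53% of the CpG-sparse tiles at 50% to under 90%, in 13.7% of the tiles of 10 to 19 CpGs at the members' level and in 71.7% of all tested tiles. Of the 6123 well-covered CpGs in members, 28.7% were under 10%, 51.1% were from 10% to under 50%, 14.9% were from 50% to under 90% and 5.32% were at 90% or more. The level of a member was thus for many tiles an average over CpGs of unlike levels.

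The unlike CpGs lay on separate sides of the tile more often than interleaved. Among the 477 members with both kinds, 136 had at least 2 CpGs under 10% and at least 2 at 50% or more, and in 124 of these (91.2%) all the low CpGs lay on one side of all the high ones. The corresponding share was 70.6% of 34 CpG-sparse tiles at 50% to under 90% and 82.4% of 188 tiles of 10 to 19 CpGs at the members' level. The nearest low and high CpGs of a member were a median of 120 bp apart (quartiles 77 and 185). The widest contrasts were near complete. In chr2:152841001-152841500 the CpGs ran from 0% to 98.5%, in chr19:5118501-5119000 from 0.58% to 99.3%, and in a member on chromosome 18 from 0% to 100%.

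The surroundings of members were mixed as well. Of the members, 169 (14.3%) lay within 2000 bp of a tile with at least 20 CpGs and under 10% methylation, and 113 (9.57%) lay directly beside one. For CpG-sparse tiles at 50% to under 90% these shares were 2.26% and 0.769%. For tiles of 10 to 19 CpGs at the members' level they were 23.6% and 18.3%, and over all tested tiles 13.9% and 11.7%. The values over all tiles are lower bounds, since for tiles themselves CpG-dense and unmethylated only such tiles before them were counted. The members' shares were thus above those of the other partly methylated sparse tiles. They were below those of tiles of 10 to 19 CpGs at the members' level, as a description with no test. The tile next to a member, where it was covered, was under 10% in 42.0% of 355 cases before it and in 46.2% of 327 cases after it. Beside all tested tiles these shares were 45.9% and 45.6%, so the members' shares were near the background. The neighbour of a member was at 90% or more in 11.8% and 12.5%, against 37.7% and 37.9% beside all tested tiles and 7.27% and 6.91% beside tiles of 10 to 19 CpGs at the members' level.

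**Figure D1:**
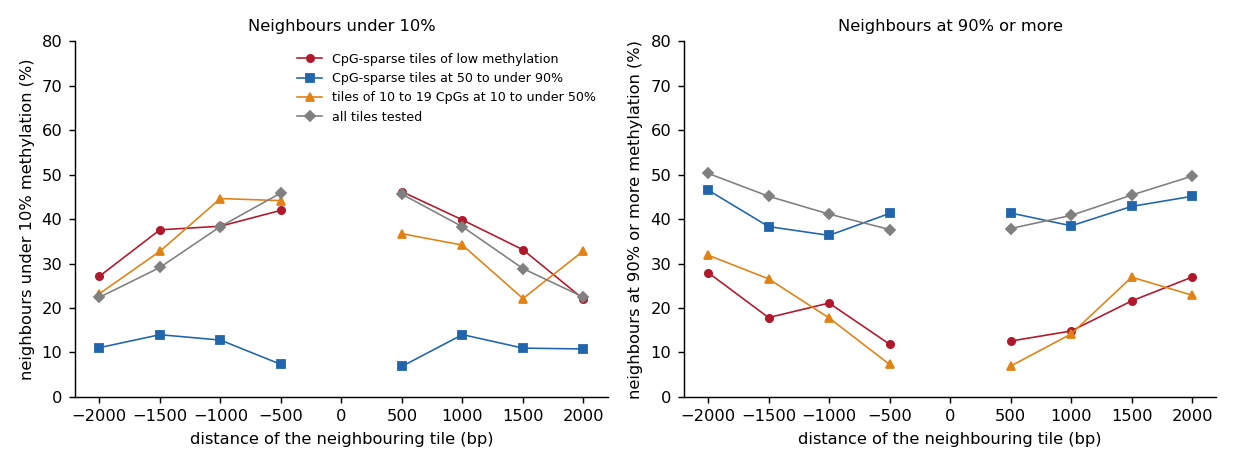
Methylation of covered tiles at set distances from members and from 3 comparison sets, as the percentage of neighbours under 10% (left) and at 90% or more (right), each point being 1 distance. Beside a member 42.0% and 46.2% of neighbours were under 10%, 44.2% and 36.7% beside tiles of 10 to 19 CpGs at the members' level, 7.30% and 6.86% beside CpG-sparse tiles at 50% to under 90%, and 45.9% and 45.6% beside all tested tiles.

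Where both neighbours were covered (93 members), 41 (44.1%) had one neighbour under 10% and the other at 50% or more. The share was 30.4% of 158 tiles of 10 to 19 CpGs at the members' level, 10.1% of 218 CpG-sparse tiles at 50% to under 90% and 6.90% of 8319 tested tiles. A further 9 members had both neighbours high and 4 had both low. Members rarely adjoined each other: 14 were directly followed by a member, and the median distance to the next on a chromosome was 442000 bp. The share within 2000 bp of a CpG-dense unmethylated tile was 20.1% among members at 10% to under 20% and 9.52% among those at 40% to under 50%.

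The class as a whole kept nearly the same level in all libraries. Mean methylation over the 1181 members was 30.001% in the library kept in estradiol and 29.4% ± 0.018 (SD, n = 2, as below) after 24 h. It was 29.6% ± 0.716 after 40 h, 30.1% ± 0.541 after 56 h, 29.2% ± 0.389 after 72 h and 29.7% ± 0.298 after 120 h. All 11 library means lay between 28.96% and 30.47%, a range of 1.51 points. By way of comparison, the means over all tested tiles ranged over 0.444 points. The range was 1.45 points in tiles of 10 to 19 CpGs at the members' level and 1.25 points in CpG-sparse tiles at 50% to under 90%.

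**Figure D2:**
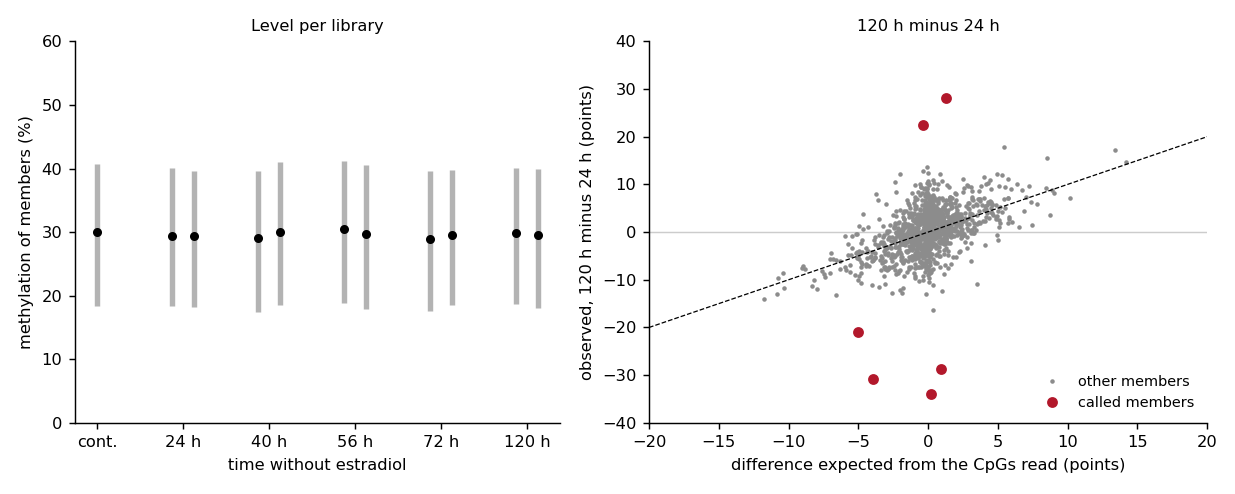
Left: mean methylation of the 1181 members in each library (points) with the quartiles over members (grey bars). Right: for each member, the observed difference, 120 h minus 24 h, against the difference expected from which CpGs were read, with the line of equality dashed and the 6 called members in red. Library means lie between 28.96% and 30.47%, and the called members lie between -34.0 and 28.2 points, away from the line.

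Single members varied between libraries. Across members, Pearson's r between libraries was 0.647 to 0.883 (n = 1181 tiles, which share libraries and are no independent replicates), against 0.992 to 0.998 across all tested tiles. The members span a narrower range of levels than all tiles do, and its part in the lower r was not tested. Replicates differed by 10 points or more in 211 members (17.9%) after 24 h, against 2.42% of all tested tiles. After 40 h they did so in 435 members (36.8%), against 6.86% of all tiles, and after 56 h in 421 (35.6%), against 7.18%. After 72 h it was 180 members (15.2%), against 2.15% of all tiles, and after 120 h 126 (10.7%), against 1.21%. In tiles of 10 to 19 CpGs at the members' level these shares were 13.1%, 34.1%, 32.5%, 15.0% and 8.49%, in the same order. In CpG-sparse tiles at 50% to under 90% they were 10.3%, 26.3%, 27.3%, 9.11% and 5.09%. The 40 h and 56 h libraries were the shallowest, with medians of 47 to 59 observations per member. The other replicated groups had medians of 97 to 297. Counting error is larger at low depth, so these shares do not compare the groups. Counting error would give a mean chi-square of 1 between replicates if all observations were independent. Reads counted at several CpGs of a tile can raise it with no difference between libraries, and their part was not tested. The members had 2.16 after 24 h, 2.16 after 40 h, 1.94 after 56 h, 2.74 after 72 h and 2.21 after 120 h. In the same 5 groups, tiles of 10 to 19 CpGs at the members' level had 2.89 to 5.66, and all tested tiles had 1.45 to 1.67.

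Because CpGs of a member differ, its level moves when a library reads another mix of them. The size of this was measured by giving every CpG its pooled level in every library and letting only the reads per CpG vary. The resulting level had a median standard deviation over the 11 libraries of 2.28 points in members and 0.236 points over all tested tiles. It was 2.24 points in tiles of 10 to 19 CpGs at the members' level and 1.92 points in CpG-sparse tiles at 50% to under 90%. In the 477 members with both low and high CpGs it was 3.87 points, and in the 197 with like CpGs 0.440. The observed standard deviation of a member was 5.94 points in the median, and 4.78 points remained after the expected part was taken off. The mean chi-square between replicates was 1.496 to 2.083 after the same step. In 79 members (6.69%) the mix alone gave a difference of 5 points or more between 120 h and 24 h. The share was 0.873% over all tested tiles and 5.97% in tiles of 10 to 19 CpGs at the members' level. In CpG-sparse tiles at 50% to under 90% it was 3.23%.

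The 120 h libraries were first set against those of 24 h and return, the longest against the shortest withdrawal. Methylation of 6 members passed the test, 4 lower and 2 higher at 120 h, by the quasi-binomial model at a Benjamini-Hochberg adjusted p under 0.05. They were 0.508% of the members, and 11 of all 47317 tiles passed (0.0232%). None of the 6 lay within 2000 bp of a tile with at least 20 CpGs and under 10% methylation. The share so near was 14.3% of all members and at least 13.9% of all tested tiles, so this is no result about the 6. The region on chromosome 13 lay directly beside a tile of 12 CpGs with a pooled level of 0.968%. The test was not stable for these regions: no member passed when any of the 4 compared libraries was left out, when only these 4 were fitted, or with limma. Unadjusted p-values of the model were too small on simulated reads that varied between libraries of unequal depth. With reads weighted for depth, an alternative added after seeing the data, 0 members passed instead of 6. The 6 regions are therefore described by their values.

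The smallest adjusted p was at chr19:58206501-58207000, with 3 CpGs. Methylation was 25.9% and 29.0% in the 120 h libraries, against 59.3% and 57.1% in the 24 h libraries. Both 120 h libraries lay below both 24 h libraries, with a difference of -30.7 points (27.5% ± 2.19 against 58.2% ± 1.56, SD, n = 2; quasi-binomial model, adjusted p = 0.00473). The order over all groups was 73.0% in the library kept in estradiol (Wilson 95% interval 61.9 to 81.8, 74 observations), then 58.2%, 39.9%, 31.5%, 31.8% and 27.5% after 24, 40, 56, 72 and 120 h. The change sat in 2 of the CpGs. At 58206629 methylation was 10.3% after 120 h, against 56.5% after 24 h, and at 58206640 it was 3.59%, against 35.5%. The remaining CpG, at 58206766, was 88.0% after 120 h and 92.0% after 24 h.

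At chr15:59538501-59539000 methylation was 16.5% and 10.8% in the 120 h libraries, against 46.6% and 48.8% in the 24 h libraries. The groups did not overlap, and the difference was -34.0 points (13.6% ± 4.002 against 47.7% ± 1.55, SD, n = 2; quasi-binomial model, adjusted p = 0.0118). All 5 CpGs were lower, by 23.3 to 50 points, and the 2 outermost on the left were at 0% after 120 h, with 0 of 49 and 0 of 37 reads methylated, which allows levels of up to 6.12% and 8.11%. The library kept in estradiol had 63.4% (48.1 to 76.4, 41 observations). The 72 h replicates were 20.3% and 36.5%, so this group overlapped the 56 h group at 25.6% and 28.6%.

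Methylation at chr2:72875501-72876000 was 30.2% and 39.7% in the 120 h libraries, against 64.9% and 62.4% in the 24 h libraries. The groups were apart, with a difference of -28.7 points (34.9% ± 6.72 against 63.6% ± 1.75, SD, n = 2; quasi-binomial model, adjusted p = 0.0224). The lowest level was not at 120 h but at 72 h, with 22.2% and 26.8%, and the library kept in estradiol was highest at 80.0% (68.7 to 87.9, 65 observations). All 5 CpGs were lower after 120 h than after 24 h, by 14.6 to 38.0 points, and the first of them had 0 of 105 reads methylated after 120 h, which allows up to 2.86%.

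The region chr13:18085001-18085500, with 7 CpGs, behaved unlike the other 3 that fell. It had 25.8% and 29.95% in the 120 h libraries, against 50% and 47.8% in the 24 h libraries (difference -21.0 points, 27.9% ± 2.93 against 48.9% ± 1.54, SD, n = 2; quasi-binomial model, adjusted p = 0.0478). The library kept in estradiol was low, at 16.2% (9.75 to 25.8, 80 observations), so the 24 h libraries were the high ones among all 11. Its 3 leftmost CpGs were at 37.4 to 41.7% pooled over libraries, and the 4 CpGs to their right were at 0 to 0.935%. The mix of CpGs read alone gave -5.01 of the -21.0 points. With an offset for the mix, added after seeing the data, this region no longer passed (quasi-binomial model, adjusted p = 0.256; over all alternatives 0.0349 to 1). The tile before it, with 12 CpGs, was at 1.14% after 120 h and 0.696% after 24 h.

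Of the regions that rose, chr2:31656501-31657000 had 59.6% and 56.5% in the 120 h libraries, against 25.6% and 34.1% in the 24 h libraries. The difference was 28.2 points (58.1% ± 2.21 against 29.9% ± 6.01, SD, n = 2; quasi-binomial model, adjusted p = 0.0224), and the groups did not overlap. Group means in between were 42.0%, 47.9% and 53.1% after 40, 56 and 72 h, and the library kept in estradiol was lowest at 16.9% (9.94 to 27.3, 71 observations). The CpGs on the left moved most: at 31656581 methylation was 82.8% after 120 h, against 35.4% after 24 h. The neighbouring tile to the left, with 9 CpGs, was 64.6% after 120 h and 39.4% after 24 h, and the neighbour to the right, with 3 CpGs, was 79.9% and 75.3%.

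At chr2:34476001-34476500 methylation was 20.7% and 31.2% in the 120 h libraries, against 2.53% and 4.29% in the 24 h libraries. The difference was 22.5 points (25.9% ± 7.45 against 3.41% ± 1.24, SD, n = 2; quasi-binomial model, adjusted p = 0.0381). In the library kept in estradiol 0 of 53 observations were methylated, which would allow a level of up to 5.66% if they were independent. They come from 10 or 11 reads at each of the 5 CpGs, and 1 read can be counted at several, so the bound may be too low. Of the 5 CpGs, 2 carried most of the change: 34476319 had 58.1% after 120 h, against 9.38% after 24 h, and 34476356 had 43.3%, against 4.76%. The other 3 CpGs changed by 5.52 to 8.36 points.

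**Figure D3:**
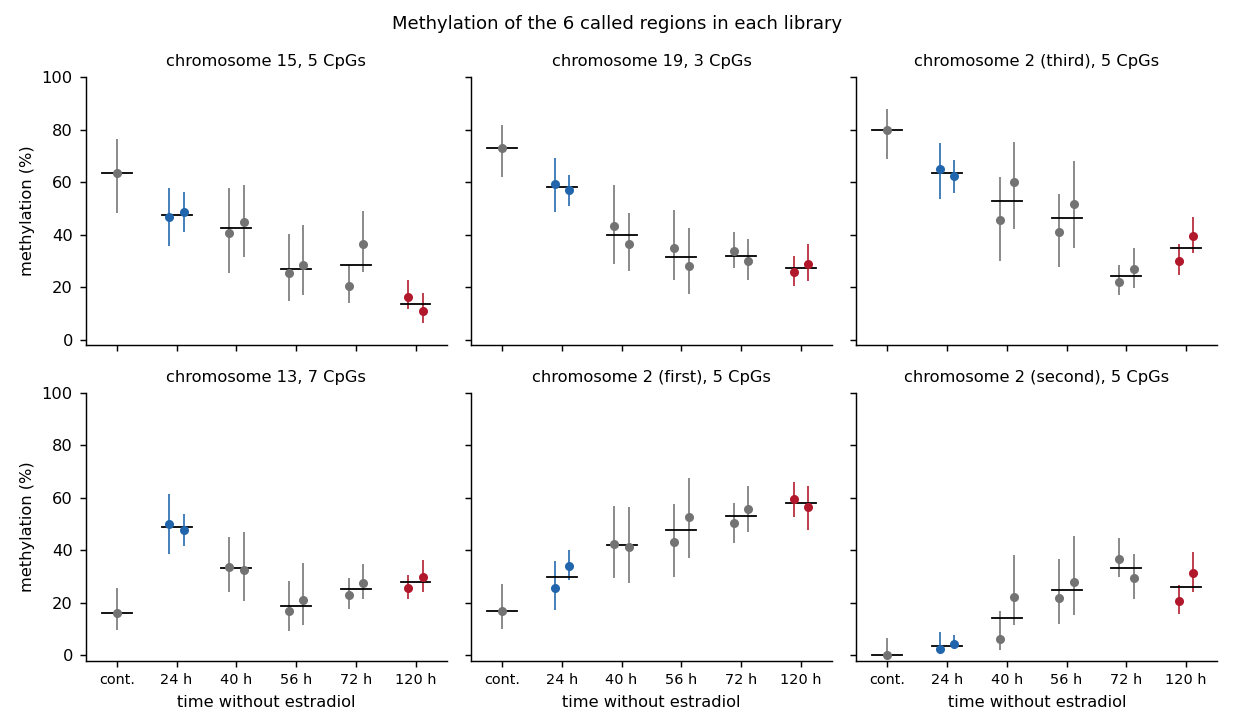
Methylation of the 6 called regions in each library (points) and the group means (bars), with 120 h in red and 24 h in blue. Wilson 95% intervals are for counting error, with CpG-read observations taken as independent. On chromosome 2, the regions are numbered in order along the chromosome. The 120 h libraries lie below the 24 h libraries in 4 regions and above them in 2, and chromosome 13 is the one of the 4 in which the library kept in estradiol is also low.

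**Figure D4:**
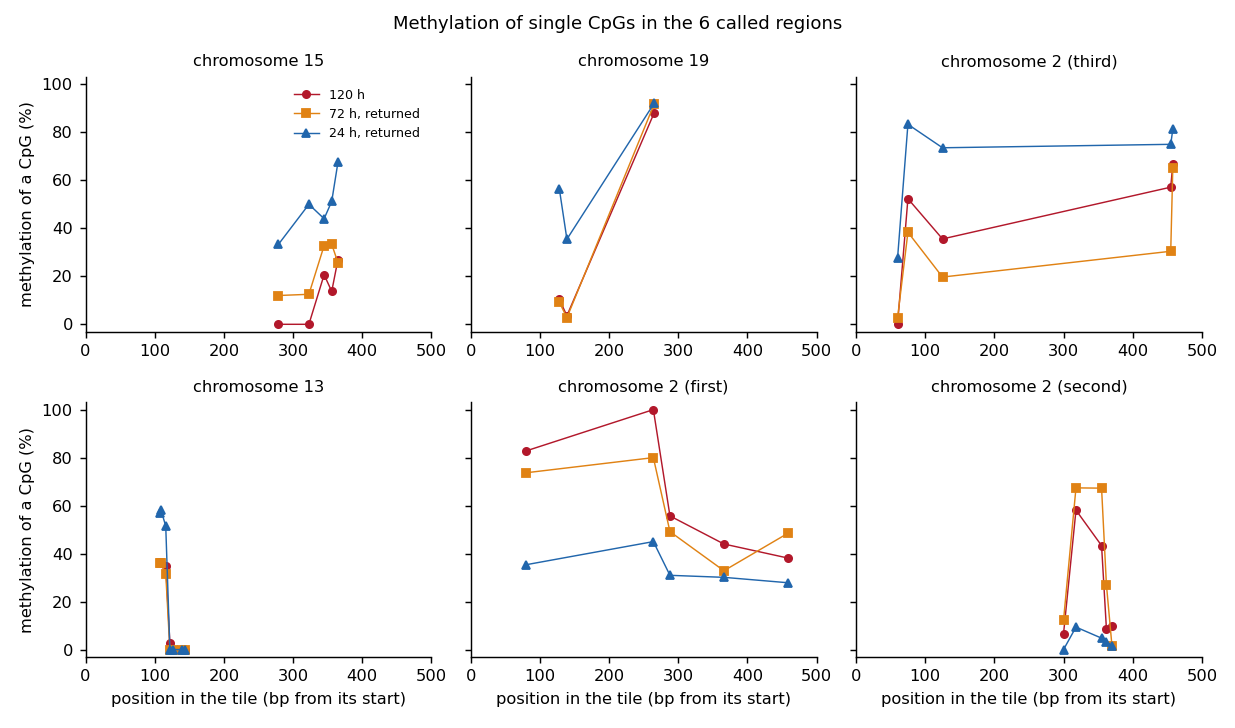
Methylation of single CpGs in the 6 regions against position within the tile, for 120 h (red), 72 h and return (orange) and 24 h and return (blue). The difference between 120 h and 24 h spans all 5 CpGs on chromosome 15, 2 of 3 CpGs on chromosome 19 and mainly 2 of 5 CpGs in the second region of chromosome 2.

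Over all 1181 members, the 6 included, the median difference, 120 h minus 24 h, was 0.467 points (5th to 95th percentile -7.89 to 8.31), against -0.003 points over all tested tiles. In 49 members (26 higher, 23 lower, 4.15%) the 120 h and 24 h libraries did not overlap and the group means were 10 points or more apart, against 0.549% of all tiles. The share was 3.45% in tiles of 10 to 19 CpGs at the members' level and 2.55% in CpG-sparse tiles at 50% to under 90%. A partial level leaves room to move either way, and these counts had no test of their own. Of the 49, 13 had an expected difference of 5 points or more in the same direction from the mix of CpGs alone, and 24 still differed by 10 points after the mix was taken off. Members with like CpGs, with both low and high CpGs, near CpG-dense tiles or far from them had medians from -0.172 to 1.25 points.

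The comparison of 72 h and return with 24 h and return called 2 members, 1 higher and 1 lower, against 4 of all tiles (0.00845%), and both are among the 6 above. The comparison shares its 24 h libraries with the one of 120 h, so the 2 are not independent. At chr2:72875501-72876000 methylation was 22.2% and 26.8% in the 72 h libraries, against 64.9% and 62.4% in the 24 h libraries (difference -39.2 points; quasi-binomial model, adjusted p = 0.00329). At chr2:34476001-34476500 it was 36.9% and 29.4%, against 2.53% and 4.29% (difference 29.7 points; quasi-binomial model, adjusted p = 0.0104). Both passed also with reads weighted for depth (quasi-binomial model, adjusted p = 0.0255 each). Over all alternatives the model's or limma's adjusted p ran from 0.000148 to 0.9999 for the first and from 0.000798 to 0.9999 for the second. Each lost the call when any of the 4 compared libraries was left out. Gaps of 10 points or more without overlap were found in 74 members (37 higher, 37 lower, 6.27%), against 0.653% of all tiles. In tiles of 10 to 19 CpGs at the members' level the share was 4.38%. Others that did not pass included chr10:81027001-81027500 and chr8:19784501-19785000. The first had 36.1% and 37.0% in the 72 h libraries, against 16.2% and 16.7% in the 24 h libraries (quasi-binomial model, adjusted p = 0.212). The second had 12.6% and 18.9%, against 29.6% in both 24 h libraries (quasi-binomial model, adjusted p = 0.250).

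Comparisons with the single library kept in estradiol called no member and no tile (0%). For 120 h against continuous estradiol the quasi-binomial model left 104 members (8.81%, against 5.17% of all tiles) with p under 0.05 before adjustment, and limma left 31. For 24 h against continuous estradiol these were 101 (8.55%, against 5.01% of all tiles) and 35. After adjustment limma called 0 in both. Members apart by 10 points or more numbered 250 (118 higher, 132 lower) for 120 h and 255 (111 higher, 144 lower) for 24 h. They were 21.2% and 21.6% of the members. The shares were 17.4% and 20.03% in tiles of 10 to 19 CpGs at the members' level. In CpG-sparse tiles at 50% to under 90% they were 12.9% and 13.6%, and over all tested tiles 2.88% and 3.09%. Lack of overlap is easier to meet with 1 library. Groups lay apart by any distance in 76.97% and 73.6% of members, against 34.6% for 120 h against 24 h. The mix of CpGs alone gave 5 points or more the same way in 84 of the 250 and 94 of the 255. At chr15:59538501-59539000 the mean of the 120 h libraries lay below the 63.4% of the library kept in estradiol (quasi-binomial model, adjusted p = 0.173). At chr15:27395501-27396000 the 24 h libraries had 19.1% and 24.3%, against 48.8% in the library kept in estradiol (quasi-binomial model, adjusted p = 0.599).

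The 120 h libraries set against the 72 h libraries, that is longest withdrawal against the longest withdrawal with return, called no member (0% of tiles) by the quasi-binomial model, and limma called 0 too. Before adjustment 102 members (8.64%, against 6.38% of all tiles) had p under 0.05 by the quasi-binomial model, and 1 by limma. In 35 members (23 higher, 12 lower, 2.96%) the groups were apart by 10 points or more, against 0.353% of all tiles. In tiles of 10 to 19 CpGs at the members' level the share was 2.79%. At chr13:55469501-55470000 the 120 h libraries had 36.8% and 31.0%, against 48.8% and 54.0% in the 72 h libraries (quasi-binomial model, adjusted p = 0.776). At chr8:27268501-27269000 they had 31.3% and 33.8%, against 16.0% and 26.1%, and the mix of CpGs read gave 6.43 of the 11.5 points (quasi-binomial model, adjusted p = 0.609).

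The test of any difference among the 6 groups called 2 members, against 0.00845% of all tiles: chr2:72875501-72876000 and chr19:58206501-58207000 (quasi-binomial model, adjusted p = 0.0141 each). Their group means spanned 55.5 and 45.5 points. With reads weighted for depth chr2:72875501-72876000 passed and chr19:58206501-58207000 did not (quasi-binomial model, adjusted p = 0.0426 and 0.188). Over all alternatives, limma included, adjusted p ran from 0.00062 to 0.888 for the first and from 0.00696 to 0.888 for the second, and both calls were lost when any of the 10 replicates was left out. The trend with hours of withdrawal over the 8 returned libraries called 1 member, lower, against 0.00423% of all tiles. That was chr2:72875501-72876000 again, with a fitted change of -37.2 points from 24 to 72 h (quasi-binomial model, adjusted p = 0.0244). It did not pass with reads weighted for depth (quasi-binomial model, adjusted p = 0.536; 0.0169 to 0.9999 over all alternatives, limma included), and it passed without 40 h replicate 2 and lost the call without any other of the 8. The trend did not pass at chr2:34476001-34476500, with a fitted change of 29.97 points (quasi-binomial model, adjusted p = 0.102). That region was already called for 72 h against 24 h, whose libraries are part of the trend.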

How the data were processed

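DNA methylation was measured by RRBS in 11 libraries. The deposited tables list each CpG with the methylated and total read counts as text (methylated/all), and a score of 0 to 1000 that equalled 1000 times the methylated share in every line. The authors' build was mm9, per the submitters' processing notes. The aligner, methylation caller and handling of PCR duplicates are not given in the sources used here.

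Counts were summed into 500-bp tiles, and 72 of 47389 tiles with reads of 1 kind were dropped. A quasi-binomial model with 1 mean per group was fitted to all 11 libraries for each tile, with two-sided deviance F tests. The dispersion was moderated by limma 3.58.1 (squeezeVar) and not allowed under 1. P-values were adjusted over all 47317 tiles, threshold 0.05. The group kept in estradiol has 1 library, assumed to vary like the others. Named regions were up to 10 each way among those called, otherwise 5 each way with the smallest unadjusted p and no overlap, of which a selection is described.

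The test was checked on simulated data. With extra variation between libraries at the real, unequal depths, its unadjusted p-values were too small in comparisons of the deeply read groups, and less so at equal depth. A fit with reads weighted for depth was therefore added. The members, lists and comparisons were chosen with earlier results of these data known. No gene was assigned to a region, and no sequence is shown, since no genome or gene annotation of mm9 was used here.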

Additional observations from a re-analysis of the deposited data

How the results depend on the processing

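With one library left out, the differences of the called regions kept their sign. In the pair comparisons this was fixed in advance, because the libraries of the compared groups did not overlap. The span among groups cannot be negative. Most other alternatives change the test and not the observed difference, so they bear on the calls only, and the calls depend on the settings. For 120 h against 24 h, 6 members were called, and 0 were called with a minimum of 100 observations (45 members left), with limma, with the replicate block, with only the groups compared or with reads weighted for depth. With only CpGs read 5 times in every library (713 members) 1 was called, chr19:58206501-58207000. For 72 h against 24 h, 2 were called, and 0 with the first 4 of these settings and with CpGs read 5 times. The test of any difference called 2, and 0 with 100 observations, CpGs read 5 times, limma or the replicate block, 1 with reads weighted for depth and 5 with the offset for the mix of CpGs. The trend called 1, and 0 with 100 observations, CpGs read 5 times, limma, the replicate block or reads weighted for depth. For 120 h against continuous estradiol, called 0, 1 member passed with no lower limit on the dispersion and 2 with the offset. With one library left out, called members ranged from 0 to 0 in each pair comparison and in the test of any difference, and from 0 to 2 for the trend. With 100 observations few members were left, and the called regions were not among the tested tiles. With CpGs read 5 times, only chr2:31656501-31657000 and chr19:58206501-58207000 of the called regions were still tested. For the other called regions, the lack of a call there is no result. The cause was not tested for the remaining settings. Weighting for depth and the offset were chosen after seeing the data.

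Same-numbered libraries showed little shared deviation, with a correlation between groups of -0.037 to 0.067 over members. Whether they were grown or prepared together is not said in the labels and cannot be told from these values. The replicate block uses the number only.

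The class mean, 29.6%, was 32.7% with 100 observations, 28.6% with CpGs read 5 times and 31.2% with reads summed over members. With 100 observations the median difference of 120 h minus 24 h was 1.03 points. That of 72 h minus 24 h (0.185) was then -0.422, and that of 120 h minus continuous (-0.228) was 0.617. With reads summed over members, the difference between group levels is another measure and no median over members. It was -0.262 points for 72 h minus 24 h and 0.513 points for 120 h minus continuous. A shift of the grid by 250 bp moved neither the class mean nor the median differences by more than the spread between replicates. Depth limits single members: with a median of 47 observations in the shallowest library, small differences were not detectable.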
